A study of Mus musculus with 8 samples.

Results

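Solute carrier (SLC) transporters were followed in developing mouse brain. The members were all probe sets whose platform annotation gives exactly 1 gene symbol, beginning with Slc and a digit, apart from those of Slc1a2, Slc1a3, Slc4a4, Slc6a2 and Slc18a2 (12 probe sets of 5 genes). They came to 225 probe sets of 156 genes, out of 22511 probe sets, of which 14661 had 1 symbol and stood for 9607 genes. A single probe set stood for 107 member genes and several for 49, with 7 for Slc38a9. Slc36a1os, Slc7a6os, Slc6a19os and Slc2a4rg-ps meet the rule by spelling, but their names mark opposite-strand transcripts or a pseudogene rather than carriers.

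RNA was hybridised to 8 Affymetrix 430B arrays, each holding 1 sample. Every animal was a T9H/+ heterozygote, which carries a reciprocal translocation between chromosomes 7 and 15. Paternal-7 samples had a paternal duplication of proximal chromosome 7 with a maternal duplication of proximal chromosome 15. Maternal-7 samples had the reverse, and no sample without a duplication was included here. Each duplication was sampled once in whole brain at 13.5 days post coitum (dpc), whole brain at 15.5 dpc, neonatal cortex and neonatal cerebellum. The neonatal samples were thus dissected regions and the embryonic ones whole brain, so that stage and dissection cannot be told apart. Whether an array held RNA of 1 animal or of a pool is not stated, and the p-values below rest on array-to-array spread alone.

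Solute carriers are membrane proteins that move ions, amino acids, sugars, nucleotides, metals and transmitters across the plasma membrane and the membranes of organelles. In brain they load synaptic vesicles, clear transmitters from the synapse, set ion gradients, and feed neurons and glia. The plasma membrane carriers for glutamate and GABA are shared between neurons and astrocytes, while vesicular carriers mark the transmitter that a neuron releases.

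The values are signals on a linear scale, and differences are log2(signal + 58.5), a scale that understates the change of dim probe sets. The array median was 229.8 to 285.7 signal units, and a signal below it was taken as not distinguishable from background. Between 111 and 137 of the 225 member probe sets exceeded the median of their array. The 152 probe sets of 111 genes that did so on at least 2 of the 8 arrays were tested. Between stages, a probe set below the median throughout 1 side passed only through the other. Examples are Slc24a2, Slc8a2, Slc7a11, Slc2a6, Slc16a12, Slc44a1 and the rising probe set of Slc4a8. The p-value of such a probe set is not independent of this filter. The fits that left out 1 array kept the same filter. "Called" means an adjusted p under 0.05 from limma, with adjustment over all 13221 tested probe sets of the array, and ± gives the standard error of a log2 difference. A gene is described by its brightest probe set, and signals of different probe sets are not compared with each other. The paternal-7 and maternal-7 arrays of 1 context correlated across members at 0.918 at 13.5 dpc, 0.923 at 15.5 dpc, 0.963 in cortex and 0.972 in cerebellum. The labelled regions were checked with Tfap2b, a gene of cerebellar interneurons, which read 363 and 339 in paternal-7 and maternal-7 cortex, against 6639 and 7313 in paternal-7 and maternal-7 cerebellum. Of the other tested markers of the cerebellar granule cell and Purkinje list, Zic1 (0.05 ± 0.23) and Calb1 (-0.42 ± 0.45) were not called between cortex and cerebellum, and Zic1 read 6283 in maternal-7 cortex, above both cerebellum arrays. Top2a, the 1 of 8 listed neural progenitor markers on the array, was on average at least 1.36-fold lower in neonatal arrays (adjusted p = 0.0409). All 4 neonatal arrays lay below the array median. Its groups overlapped, since paternal-7 brain at 15.5 dpc read 160, below 177 and 207 in paternal-7 and maternal-7 cortex. Of the listed microglia and red blood cell markers, 0 were on the array.

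Most calls among transporters lay between neonatal regions and embryonic brain. Of 152 tested member probe sets, 44 (28.9%) were called, against 30.7% of all tested probe sets. Of these, 27 (17.8%) rose, against a background of 14.3%, and 17 (11.2%) fell, against 16.4%. Counted by gene, 23 of 111 rose (20.7%) and 10 fell (9.01%), against 16.0% and 17.9% of all 6902 tested genes. The share called is near the background, with more of the calls higher and fewer lower than over all genes. Whether transporters, or any class of them, differ from other genes in this was not tested. The class counts below are to be read beside the shares of all tested genes, and the description is of which transporters moved. The median difference was -0.05 over tested members and -0.16 over all tested probe sets, and with each array centred on its median the latter became 0.02. That centring turned the split of member calls into 35 higher and 10 lower, and quantile normalization gave 29 higher and 15 lower. The split over all tested probe sets moved too. It went from 1887 higher and 2168 lower to 2398 and 1058 with centring, and to 1937 and 1606 with quantile normalization. A set of 21 called probe sets, 16 higher and 5 lower, stayed called in each of the 8 fits that left out 1 array and under every other alternative that tested them. Fewer cells of a type and less RNA per cell cannot be told apart in any of these samples.

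**Figure D1:**
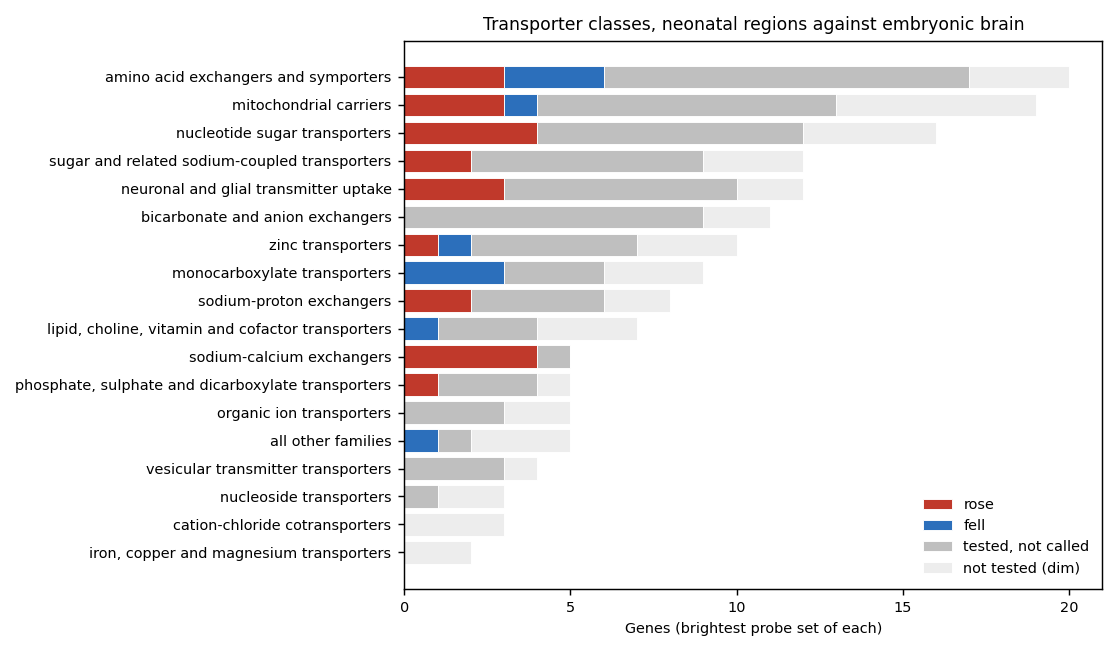
Number of genes per transporter class (horizontal axis) that rose, fell or were not called in neonatal regions against embryonic brain, or were too dim to be tested, by the brightest probe set of each gene. Among sodium-calcium exchangers 4 of 5 genes rose, and all 3 called monocarboxylate transporter genes fell. Some of these genes passed the filter only through the side where they read high. Over all tested genes 16.0% rose and 17.9% fell.

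The sodium-calcium exchangers were the class with most of its genes called. They pump calcium out of the cell against sodium, and the SLC24 branch also carries potassium. Of 5 genes 4 rose and 0 fell, against 16.0% and 17.9% of all tested genes. The class median was 1.93, against -0.14 over the brightest probe sets of all tested genes. Slc24a2 and Slc8a2 passed the filter only through their neonatal arrays, so the class count and median are not independent of it. Slc8a1, also known as NCX1, read 1744 and 1424 in paternal-7 and maternal-7 cortex and 1839 and 1253 in paternal-7 and maternal-7 cerebellum, against 64.1 and 343 in paternal-7 and maternal-7 brain at 13.5 dpc and 695 and 802 in paternal-7 and maternal-7 brain at 15.5 dpc. The lowest of these readings was the paternal-7 one at 13.5 dpc, and no embryonic array reached a neonatal one. The difference was 1.93 ± 0.36 (adjusted p = 0.0092), and it was 1.45 to 2.41 over the fits that left out 1 array, all of them called.

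Slc8a3 (NCX3) read 1399.8 in cortex and 2026 in cerebellum of paternal-7 newborns and 955 and 988 in those of maternal-7 newborns, against 127 and 177 in paternal-7 brains at 13.5 and 15.5 dpc and 296 and 189 in maternal-7 brains at these ages. All 4 neonatal arrays lay above the embryonic ones. It was not called between the embryonic ages (-0.09 ± 0.43, adjusted p = 0.934), and the neonatal difference was 2.43 ± 0.30 (adjusted p = 0.00257). Slc24a2 (NCKX2), an exchanger of neurons, read 600.4 and 267 in paternal-7 and maternal-7 cortex and 679 and 421 in paternal-7 and maternal-7 cerebellum, against 15.1 and 23.5 in paternal-7 and maternal-7 brain at 13.5 dpc and 39 and 89.5 in paternal-7 and maternal-7 brain at 15.5 dpc. It lay below the array median in all 4 embryonic arrays, so the neonatal level was at least 1.71-fold higher, with a fitted difference of 2.44 ± 0.27 (adjusted p = 0.00182). Slc8a2 (NCX2) gave 286 to 467 in the 4 neonatal arrays, against 51.2 to 204 in the 4 embryonic arrays, was at least 1.36-fold higher, and had a difference of 1.28 ± 0.24 (adjusted p = 0.00998). For Slc8a2 the call was lost without the paternal-7 neonatal cerebellum array (differences of 1.03 to 1.52 over the 8 fits that left out 1 array, adjusted p up to 0.0542). Slc24a4 gave 126 to 379 in the 4 neonatal arrays, against 213 to 515 in the 4 embryonic arrays, and its difference of -0.31 ± 0.33 was not called.

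The promoters of the exchangers that rose together are shown, with that of Slc17a7, the one regional call described further on. They are 300 bases of RefSeq on GRCm38.p6, 250 before and 50 after the annotated start, written 5′ to 3′ in the sense of the gene. Capitals mark every match, on either strand, to a GC box (GGGCGG), the core of a cAMP response element (TGACG) or a TATA box (TATAAA). Slc24a2 has 2 annotated starts.
Slc8a1 (GRCm38.p6 chr17:81738338-81738637, - strand): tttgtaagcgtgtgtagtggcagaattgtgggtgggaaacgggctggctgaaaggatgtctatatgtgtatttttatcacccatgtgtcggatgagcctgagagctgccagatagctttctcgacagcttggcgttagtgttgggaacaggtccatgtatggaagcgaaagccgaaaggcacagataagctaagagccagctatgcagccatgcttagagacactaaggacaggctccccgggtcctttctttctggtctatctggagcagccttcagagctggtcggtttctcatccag
Slc8a2 (GRCm38.p6 chr7:16129576-16129875, + strand): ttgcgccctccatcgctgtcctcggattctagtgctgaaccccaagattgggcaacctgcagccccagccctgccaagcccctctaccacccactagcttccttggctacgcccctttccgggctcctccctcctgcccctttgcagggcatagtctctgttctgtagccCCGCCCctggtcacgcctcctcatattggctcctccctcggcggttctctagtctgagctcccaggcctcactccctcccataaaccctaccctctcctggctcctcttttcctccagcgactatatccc
Slc8a3 (GRCm38.p6 chr12:81333131-81333430, - strand): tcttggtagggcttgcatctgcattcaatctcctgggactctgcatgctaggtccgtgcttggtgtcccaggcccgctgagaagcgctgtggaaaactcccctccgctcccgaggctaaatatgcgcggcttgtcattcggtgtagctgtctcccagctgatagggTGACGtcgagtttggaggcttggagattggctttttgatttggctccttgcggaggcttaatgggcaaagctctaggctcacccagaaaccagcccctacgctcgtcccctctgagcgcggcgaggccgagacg
Slc24a2, upstream start (GRCm38.p6 chr4:87230491-87230790, - strand): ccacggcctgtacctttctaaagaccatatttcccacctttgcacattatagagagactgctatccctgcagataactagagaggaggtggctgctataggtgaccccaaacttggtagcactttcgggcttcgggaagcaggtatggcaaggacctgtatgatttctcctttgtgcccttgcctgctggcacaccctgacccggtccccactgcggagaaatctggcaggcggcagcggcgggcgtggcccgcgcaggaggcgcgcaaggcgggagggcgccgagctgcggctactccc
Slc24a2, downstream start (GRCm38.p6 chr4:87227914-87228213, - strand): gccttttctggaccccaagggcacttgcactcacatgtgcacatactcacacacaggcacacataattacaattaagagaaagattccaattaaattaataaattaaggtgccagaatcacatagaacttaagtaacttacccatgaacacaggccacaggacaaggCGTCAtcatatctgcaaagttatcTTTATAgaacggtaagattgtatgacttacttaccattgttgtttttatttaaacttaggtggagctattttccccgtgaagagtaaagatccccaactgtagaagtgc
Slc17a7 (GRCm38.p6 chr7:45163671-45163970, + strand): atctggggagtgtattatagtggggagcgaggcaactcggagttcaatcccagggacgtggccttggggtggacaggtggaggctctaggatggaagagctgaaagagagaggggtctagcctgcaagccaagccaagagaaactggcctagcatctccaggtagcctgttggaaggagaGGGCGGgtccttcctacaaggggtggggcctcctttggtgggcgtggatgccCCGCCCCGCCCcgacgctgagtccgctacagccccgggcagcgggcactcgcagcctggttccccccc
Slc8a1 and the upstream start of Slc24a2 held none of the letters searched. Slc8a2 held 1 GC box, Slc8a3 held 1 TGACG, and the downstream start of Slc24a2 held 1 TGACG and 1 TATAAA. Slc17a7 held 3 GC boxes, of which 2 overlap by 1 letter. Of all 32851 promoters, GGGCGG was found in 35.7%, TGACG in 20.8% and TATAAA in 13.6%. Promoters were listed for 121 member genes (146 promoters), of which 60.3% held GGGCGG, 21.2% TGACG and 8.9% TATAAA. Among the 24 promoters of 21 genes that rose, these shares were 62.5%, 25% and 12.5%, and among the 14 promoters of 9 genes that fell they were 64.3%, 14.3% and 7.14%. None of the 3 motifs was found in all 4 exchangers that rose.

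**Figure D2:**
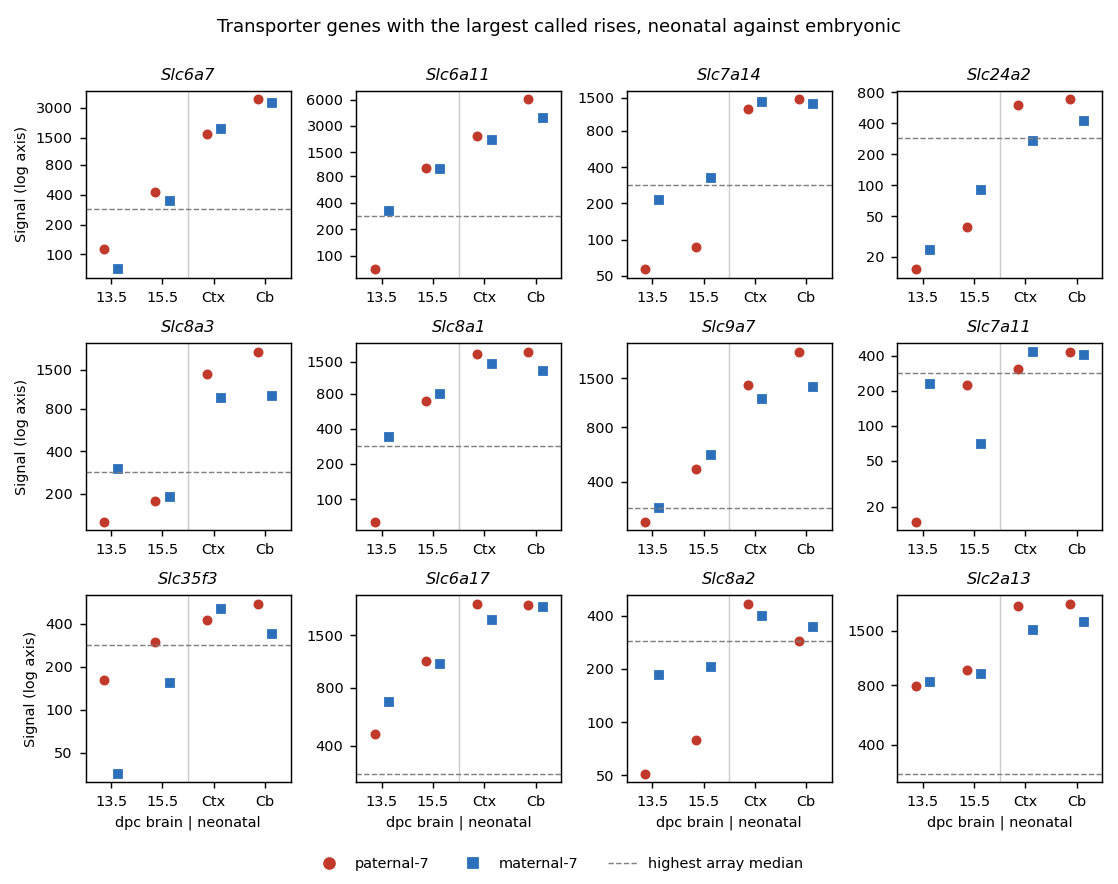
Signal (log axis) on each array for the 12 transporter genes with the largest called rises whose neonatal and embryonic arrays did not overlap, in embryonic brain at 13.5 and 15.5 dpc, neonatal cortex (Ctx) and neonatal cerebellum (Cb), with paternal-7 (circles) and maternal-7 (squares) samples. The dashed line is the highest array median, and in Slc6a7 the signal is higher at each of the later stages, to 3367 and above in cerebellum.

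Among neurotransmitter uptake carriers of the SLC1 and SLC6 families, 3 of 10 tested genes rose and 0 fell. Over all tested genes these shares were 16.0% and 17.9%. Slc6a7 (PROT), the proline transporter of excitatory nerve endings, had the largest difference of any member. It read 1632 in cortex and 3640.4 in cerebellum of paternal-7 newborns and 1838 and 3367 in those of maternal-7 newborns, against 113 and 426 in paternal-7 brains at 13.5 and 15.5 dpc and 70.6 and 343 in maternal-7 brains at these ages. The arrays of each stage lay apart from those of the next, and cerebellum lay above cortex. The neonatal difference was 3.30 ± 0.15 (adjusted p = 0.000565), at 3.19 to 3.41 in the fits that left out 1 array.

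Slc6a11, a GABA transporter of astrocytes, read 2335 and 2088 in paternal-7 and maternal-7 cortex and 6021 and 3716 in paternal-7 and maternal-7 cerebellum, against 69.9 and 320.3 in paternal-7 and maternal-7 brain at 13.5 dpc and 993 and 967 in paternal-7 and maternal-7 brain at 15.5 dpc. The paternal-7 array at 13.5 dpc was the lowest and the paternal-7 cerebellum array the highest. The neonatal difference was 2.78 ± 0.35 (adjusted p = 0.00251), and the call was kept in all 8 fits that each left out 1 array. Slc6a17 (NTT4), a carrier of neutral amino acids into synaptic vesicles, gave 1812 to 2197 in the 4 neonatal arrays, against 460.4 to 1107 in the 4 embryonic arrays. Its difference was 1.34 ± 0.16 (adjusted p = 0.00237), and its second probe set moved the same way by 0.48 ± 0.13 (adjusted p = 0.0327), a call that was lost without any 1 array.

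The other tested genes of this class were not called between stages. Slc6a6, the taurine transporter, gave 2572 to 4102 in the 4 neonatal arrays, against 1935 to 2629.8 in the 4 embryonic arrays, with a difference of 0.44 ± 0.16 (adjusted p = 0.0744). Slc6a5, the glycine transporter of glycinergic nerve endings, gave 41.3 to 558 in the 4 neonatal arrays, against 205 to 445 in the 4 embryonic arrays, with no order between stages. Slc1a5, an exchanger of glutamine and other neutral amino acids, had a difference of -0.40 ± 0.24. Slc1a7, a retinal glutamate transporter, had one of -0.04 ± 0.21. Slc6a19, a carrier of neutral amino acids known from gut and kidney, had one of -0.21 ± 0.19, its opposite-strand transcript Slc6a19os one of -0.32 ± 0.20, and Slc6a21 one of -0.19 ± 0.38. Slc6a16 and Slc6a20b lay below the array median on every array and were not tested.

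Amino acid exchangers and symporters held both directions, with 3 of 17 tested genes higher and 3 lower, and a class median of -0.04. Each share is 17.6%, near the 16.0% higher and 17.9% lower of all tested genes. Slc7a14, a lysosomal member of the cationic amino acid transporter family, read 1221 and 1383 in paternal-7 and maternal-7 cortex and 1458 and 1325 in paternal-7 and maternal-7 cerebellum, against 56.4 and 212 in paternal-7 and maternal-7 brain at 13.5 dpc and 87.5 and 324 in paternal-7 and maternal-7 brain at 15.5 dpc. Maternal-7 embryos read above paternal-7 embryos at both ages, and all 4 neonatal arrays lay far above both. The difference was 2.78 ± 0.28 (adjusted p = 0.00145), and the call was kept in all 8 fits that each left out 1 array. Slc36a4, a proton-independent amino acid transporter, gave 2877 to 4121 in the 4 neonatal arrays, against 1432 to 2125 in the 4 embryonic arrays, a difference of 0.94 ± 0.12 (adjusted p = 0.00303). Slc7a11 (xCT), the cystine-glutamate exchanger that supplies cystine for glutathione, gave 309 to 437 in the 4 neonatal arrays, against 15 to 227 in the 4 embryonic arrays, and was at least 1.46-fold higher. Its difference of 1.44 ± 0.45 lay just inside the threshold, and the call was kept without the maternal-7 13.5 dpc or paternal-7 15.5 dpc array and lost without any other (differences of 0.89 to 2.0, adjusted p up to 0.169).

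Of the genes that fell, Slc43a1 (LAT3), a facilitated carrier of branched-chain amino acids, gave 434 to 645 in the 4 neonatal arrays, against 769 to 1786 in the 4 embryonic arrays, with a difference of -1.0 ± 0.18 (adjusted p = 0.00887). Slc7a7 (y+LAT1), a carrier of cationic and neutral amino acids, read 435 in cortex and 472 in cerebellum of paternal-7 newborns and 464 and 444 in those of maternal-7 newborns, against 1057 and 918 in paternal-7 brains at 13.5 and 15.5 dpc and 1001 and 750.0 in maternal-7 brains at these ages. Its 4 neonatal arrays lay within 435 to 472, and the difference was -0.94 ± 0.13 (adjusted p = 0.0036). Slc38a6 had overlapping groups, 829.7 to 994 in the 4 neonatal arrays, against 896 to 1656 in the 4 embryonic arrays, and a difference of -0.48 ± 0.13 (adjusted p = 0.0325), and the call was kept without the maternal-7 15.5 dpc array and lost without any other (differences of -0.54 to -0.42, adjusted p up to 0.119). The system A transporters Slc38a1 and Slc38a2, which move glutamine, were not called, with differences of 0.45 ± 0.15 and -0.21 ± 0.14. The arginine and lysine transporters Slc7a1 (3107 to 4779 over all 8 arrays) and Slc7a2 (531 to 1055) were not called either.

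Monocarboxylate transporters carry lactate, pyruvate and related acids, and some members carry other small molecules. In this class 0 of 6 tested genes rose and 3 fell, against 16.0% and 17.9% of all tested genes. The class median was -0.59. Slc16a12, counted among the 3, passed the filter only through its embryonic arrays. Slc16a10 (TAT1), a carrier of aromatic amino acids, read 479.6 and 544 in paternal-7 and maternal-7 cortex and 573 and 472 in paternal-7 and maternal-7 cerebellum, against 1813 and 1941 in paternal-7 and maternal-7 brain at 13.5 dpc and 962 and 1241 in paternal-7 and maternal-7 brain at 15.5 dpc. In both duplications it was lower at 15.5 than at 13.5 dpc and lower again in both newborn regions. The difference was -1.38 ± 0.15 (adjusted p = 0.00164), and a second probe set gave -0.99 ± 0.12 (adjusted p = 0.00258). Both calls were kept in all 8 fits that each left out 1 array. Slc16a9 gave 557 to 919.8 in the 4 neonatal arrays, against 1036 to 1391 in the 4 embryonic arrays, a difference of -0.70 ± 0.14 (adjusted p = 0.0119), and the call was lost without the paternal-7 neonatal cerebellum or maternal-7 neonatal cortex array (differences of -0.79 to -0.60 over the 8 fits that left out 1 array, adjusted p up to 0.0571). Of the 3 tested probe sets of Slc16a9, only this brightest one was called. Slc16a12, a creatine carrier, gave 94.2 to 179.9 in the 4 neonatal arrays, against 211 to 329.9 in the 4 embryonic arrays, was at least 1.19-fold lower, and had a difference of -0.88 ± 0.20 (adjusted p = 0.018). For Slc16a12 the call was lost without the paternal-7 13.5 dpc, paternal-7 15.5 dpc, paternal-7 neonatal cerebellum or paternal-7 neonatal cortex array (differences of -1.07 to -0.69 over the 8 fits that left out 1 array, adjusted p up to 0.0825). Slc16a13, Slc16a14 and Slc16a4 were not called, at -0.48 ± 0.15, 0.17 ± 0.17 and -0.14 ± 0.16. Slc16a1, the widespread lactate carrier MCT1, was above the median on 1 array only and was not tested.

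**Figure D3:**
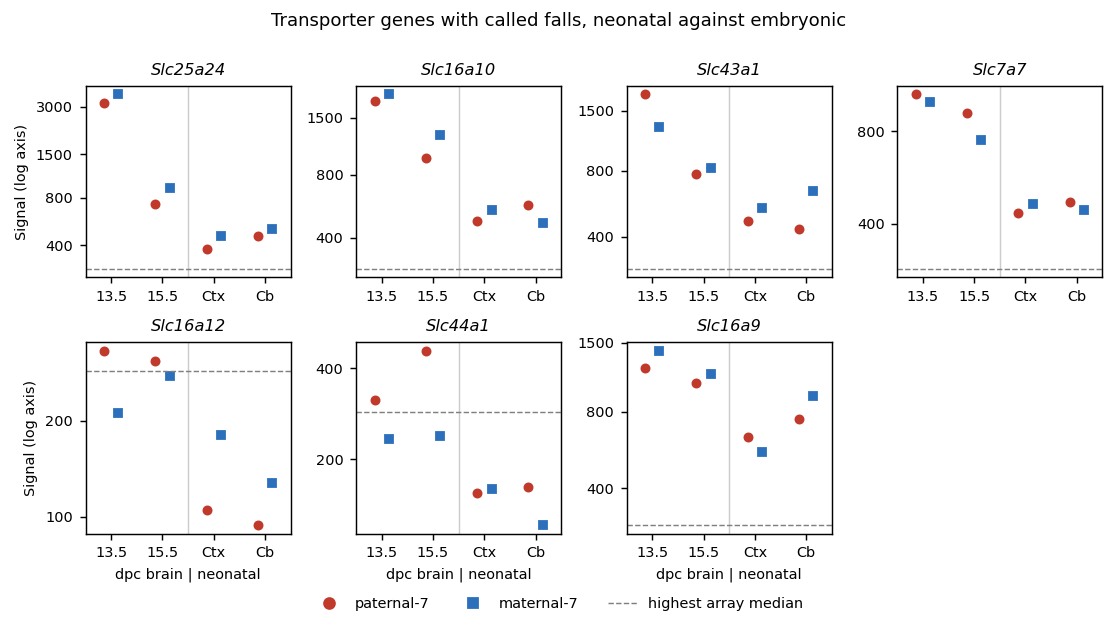
Signal (log axis) on each array for the 7 transporter genes with called falls whose neonatal and embryonic arrays did not overlap, laid out as for the rises, with paternal-7 circles and maternal-7 squares. Slc25a24 is high at 13.5 dpc, at 3139 and 3581, and below 1000 from 15.5 dpc on.

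Mitochondrial carriers (SLC25) move metabolites across the inner mitochondrial membrane. Of 13 tested genes 3 rose and 1 fell, against 16.0% and 17.9% of all tested genes. Slc25a24, an ATP-Mg/phosphate carrier, had the largest fall of any member. It read 379.6 in cortex and 457 in cerebellum of paternal-7 newborns and 461 and 506 in those of maternal-7 newborns, against 3139 and 727 in paternal-7 brains at 13.5 and 15.5 dpc and 3581 and 923 in maternal-7 brains at these ages. Most of the fall was already present at 15.5 dpc, where both arrays lay below both 13.5 dpc arrays. The neonatal difference was -1.77 ± 0.12 (adjusted p = 0.000605), and the call was kept in all 8 fits that each left out 1 array. Slc25a12 (aralar), the aspartate-glutamate carrier of neuronal mitochondria, gave 5352 to 6709 in the 4 neonatal arrays, against 2449 to 3840.2 in the 4 embryonic arrays, with a difference of 0.86 ± 0.14 (adjusted p = 0.00605), while its other 2 tested probe sets were not called. Slc25a16 gave 376 to 476 in the 4 neonatal arrays, against 178 to 284 in the 4 embryonic arrays, with a difference of 0.85 ± 0.14 (adjusted p = 0.00637).

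Slc25a18, a glutamate carrier of astrocyte mitochondria, read 1513 and 1254 in paternal-7 and maternal-7 cortex and 3476 and 1362 in paternal-7 and maternal-7 cerebellum, against 613 and 614 in paternal-7 and maternal-7 brain at 13.5 dpc and 1089 and 1250.0 in paternal-7 and maternal-7 brain at 15.5 dpc. One array, paternal-7 cerebellum, stood well above the other 3 neonatal arrays. Its difference was 0.98 ± 0.25 (adjusted p = 0.0287), and the call was kept without the maternal-7 13.5 dpc, maternal-7 15.5 dpc or maternal-7 neonatal cerebellum array and lost without any other (differences of 0.66 to 1.31, adjusted p up to 0.0934). Of the 6 listed astrocyte markers 2 were on the array, Aqp4 and Gfap, and Gfap was not tested. Aqp4, the astrocyte water channel, read 857 and 877 in paternal-7 and maternal-7 cortex and 2150.1 and 925 in paternal-7 and maternal-7 cerebellum, against 503 and 577 in paternal-7 and maternal-7 brain at 13.5 dpc and 649.7 and 364 in paternal-7 and maternal-7 brain at 15.5 dpc, with a difference of 1.03 ± 0.25 (adjusted p = 0.0218). Its highest array was also paternal-7 cerebellum, the same as for Slc25a18, Slc6a11 and the zinc importer Slc39a12, and its part in their differences was not tested. The 2 markers summed to 1061 to 2331 signal units in the neonatal arrays, against 569 to 776 in the embryonic ones. Most of each sum was Aqp4. Gfap overlapped between stages, at 136 to 250 in neonatal and 124 to 273 in embryonic arrays, and exceeded the array median on 1 array only. Slc25a1, the citrate carrier, read 5011 to 7253 over the 8 arrays, and its difference of -0.31 ± 0.14 was not called.

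Sodium-proton exchangers set the pH of the cytosol and of organelles. Of 6 tested genes 2 rose and 0 fell, against 16.0% and 17.9% of all tested genes. Slc9a7 (NHE7), an exchanger of the trans-Golgi network, gave 1145 to 2107 in the 4 neonatal arrays, against 241 to 563 in the 4 embryonic arrays, a difference of 1.82 ± 0.18 (adjusted p = 0.00145), and the call was kept in all 8 fits that each left out 1 array. Slc9a5 (NHE5), a neuronal exchanger, gave 732 to 904 in the 4 neonatal arrays, against 394 to 578 in the 4 embryonic arrays, with a difference of 0.74 ± 0.14 (adjusted p = 0.0101), and the call was lost without the paternal-7 neonatal cortex array (differences of 0.63 to 0.85 over the 8 fits that left out 1 array, adjusted p up to 0.0581). Its second probe set was not called, at -0.10 ± 0.28. Of the bicarbonate and anion exchangers of the SLC4 and SLC26 families, 0 of 9 tested genes were called by their brightest probe set, with a class median of -0.28.

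In that family the probe sets of Slc4a8, the sodium-driven chloride-bicarbonate exchanger of neurons, parted. One probe set read 496 and 532 in paternal-7 and maternal-7 cortex and 667 and 594 in paternal-7 and maternal-7 cerebellum, against 76.8 and 236 in paternal-7 and maternal-7 brain at 13.5 dpc and 117 and 241 in paternal-7 and maternal-7 brain at 15.5 dpc. It rose by 1.55 ± 0.23 (adjusted p = 0.00442), at least 2.1-fold, and by 1.33 to 1.77 over the 8 fits that left out 1 array. All 4 of its embryonic arrays lay below the array median, so it passed the filter only through its neonatal arrays. Its p-value is not independent of that filter. Another read 296 and 213 in paternal-7 and maternal-7 cortex and 305 and 269 in paternal-7 and maternal-7 cerebellum, against 544 and 310.2 in paternal-7 and maternal-7 brain at 13.5 dpc and 653 and 415 in paternal-7 and maternal-7 brain at 15.5 dpc, and fell at -0.68 ± 0.15 (adjusted p = 0.0159). For this fall the call was kept without the maternal-7 13.5 dpc, maternal-7 15.5 dpc or maternal-7 neonatal cerebellum array and lost without any other (differences of -0.78 to -0.57, adjusted p up to 0.077). The brightest probe set of the gene gave 129 to 866 in the 4 neonatal arrays, against 339 to 1141 in the 4 embryonic arrays, and was not called (-0.28 ± 0.36). Slc25a27 (UCP4), a mitochondrial carrier of neurons, parted likewise. One of its 4 tested probe sets rose by 1.14 ± 0.21 (adjusted p = 0.00934), one fell at -0.73 ± 0.18 (adjusted p = 0.0235), and the brightest was not called at 0.16 ± 0.16.

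The rising Slc25a27 probe set read 44.4 and 137 in paternal-7 and maternal-7 brain at 13.5 dpc, and 499 or more on each later array. For it the call was lost without the paternal-7 neonatal cerebellum or paternal-7 neonatal cortex array (differences of 0.88 to 1.40 over the 8 fits that left out 1 array, adjusted p up to 0.0512). For the falling probe set the call was kept without the paternal-7 13.5 dpc, paternal-7 15.5 dpc or paternal-7 neonatal cerebellum array and lost without any other (differences of -0.92 to -0.54, adjusted p up to 0.0975). The called probe set of Slc7a14 rose by 2.78, whereas its second one was not called at 0.23 ± 0.13. Among the 28 member genes with several tested probe sets, 3 had all of them called, 8 some, 2 had calls in opposite directions and 15 had none. Whether such probe sets read different transcripts was not tested.

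**Figure D4:**
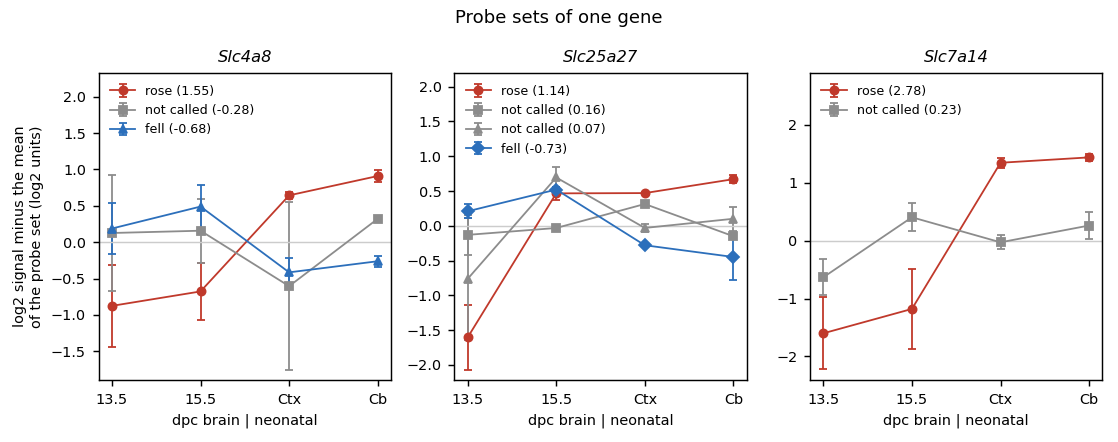
log2 signal of each tested probe set of Slc4a8, Slc25a27 and Slc7a14 minus its mean over the 8 arrays, at 13.5 and 15.5 dpc, neonatal cortex (Ctx) and neonatal cerebellum (Cb). Points are the mean of the paternal-7 and maternal-7 arrays, bars reach from the lower to the higher of both, and the legend gives the neonatal minus embryonic difference. In Slc4a8 and Slc25a27 one probe set rose and another fell.

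The SLC35 carriers bring nucleotide sugars into the Golgi and endoplasmic reticulum and include several members without a settled substrate. Of 12 tested genes 4 rose and 0 fell, against 16.0% and 17.9% of all tested genes. Slc35f1, a brain-enriched member, gave 3793 to 4154 in the 4 neonatal arrays, against 1265 to 3475 in the 4 embryonic arrays, a difference of 0.95 ± 0.14 (adjusted p = 0.00417), and its second probe set gave 0.84 ± 0.15 (adjusted p = 0.00875). For the second the call was lost without the paternal-7 neonatal cortex array (differences of 0.76 to 0.92 over the 8 fits that left out 1 array, adjusted p up to 0.052). Slc35f3 gave 341 to 553 in the 4 neonatal arrays, against 35.8 to 299.5 in the 4 embryonic arrays, a difference of 1.36 ± 0.23 (adjusted p = 0.00726), and the call was kept in all 8 fits that each left out 1 array. Slc35f2 and Slc35e2 had smaller differences of 0.80 ± 0.21 (adjusted p = 0.0283) and 0.66 ± 0.15 (adjusted p = 0.0197). For Slc35f2 the call was kept without the maternal-7 13.5 dpc or maternal-7 neonatal cortex array and lost without any other (differences of 0.57 to 1.02, adjusted p up to 0.116). For Slc35e2 the call was kept without the maternal-7 13.5 dpc, maternal-7 15.5 dpc or maternal-7 neonatal cerebellum array and lost without any other (differences of 0.55 to 0.78, adjusted p up to 0.0857). The UDP-galactose carrier Slc35a2 was not called by its brightest probe set (0.05 ± 0.16), and its second one was at least 1.35-fold lower, with a fitted difference of -0.61 ± 0.14 (adjusted p = 0.0223), and the call was kept without the maternal-7 13.5 dpc, maternal-7 15.5 dpc or maternal-7 neonatal cerebellum array and lost without any other (differences of -0.68 to -0.53, adjusted p up to 0.105). Slc35e3 read 2692 to 3397 over the 8 arrays and was not called.

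Of the sugar and related sodium-coupled transporters, 2 of 9 tested genes rose and 0 fell, against 16.0% and 17.9% of all tested genes. Slc2a13 (HMIT), the proton-coupled inositol transporter of neurons, gave 1513 to 2062 in the 4 neonatal arrays, against 791 to 951 in the 4 embryonic arrays. Its difference was 1.0 ± 0.14 (adjusted p = 0.00362), and the call was kept in all 8 fits that each left out 1 array. Slc2a6 (GLUT6), a lysosomal hexose transporter, gave 159.8 to 305 in the 4 neonatal arrays, against 41.2 to 189.8 in the 4 embryonic arrays, with a difference of 0.92 ± 0.15 (adjusted p = 0.00618). All 4 embryonic arrays lay below the array median, as did both cortex arrays, so no size of the difference can be given beyond this fitted value. Its groups overlapped, since the paternal-7 15.5 dpc array read above maternal-7 cortex. The sodium-inositol cotransporter Slc5a3 (2350.5 to 3974 over 8 arrays), Slc45a1 (1644 to 2860.3), a glucose transporter of brain, and Slc45a4 (1676 to 2690.0) were not called.

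Zinc transporters had 1 of 7 tested genes higher and 1 lower. Each share is 14.3%, near the 16.0% higher and 17.9% lower of all tested genes. Slc39a12 (ZIP12), a zinc importer of brain, read 263 and 524 in paternal-7 and maternal-7 cortex and 1323 and 756 in paternal-7 and maternal-7 cerebellum, against 185 and 193 in paternal-7 and maternal-7 brain at 13.5 dpc and 468 and 590.2 in paternal-7 and maternal-7 brain at 15.5 dpc. Cerebellum read above cortex in both duplications, and the cortex arrays overlapped those of 15.5 dpc. The difference was 0.83 ± 0.26 (adjusted p = 0.0479), and the call was kept without the paternal-7 neonatal cortex or maternal-7 neonatal cerebellum array and lost without any other (differences of 0.54 to 1.12, adjusted p up to 0.15). Slc30a8 (ZnT8), known for loading zinc into insulin granules, gave 176 to 267 in the 4 neonatal arrays, against 209.6 to 496 in the 4 embryonic arrays, with a difference of -0.62 ± 0.19 (adjusted p = 0.0498). For Slc30a8 the call was kept without the maternal-7 13.5 dpc array and lost without any other (differences of -0.84 to -0.41, adjusted p up to 0.185). Slc39a10 (ZIP10) read 4686 to 7863 and was not called.

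Single genes were called in the smaller classes. Slc13a4, a sulphate transporter, gave 918 to 2117 in the 4 neonatal arrays, against 482 to 982 in the 4 embryonic arrays, with a difference of 0.88 ± 0.18 (adjusted p = 0.0126), and the call was lost without the maternal-7 neonatal cerebellum or maternal-7 neonatal cortex array (differences of 0.74 to 1.03 over the 8 fits that left out 1 array, adjusted p up to 0.058). Summed signals of the 3 of 7 listed choroid plexus markers on the array (Ttr, Clic6 and Kcnj13) were 36139 to 45552 in the neonatal arrays, against 24815 to 58548 in the embryonic ones. Most of each sum was Ttr, which read 22316 to 53757 over the 8 arrays. By their brightest probe sets Ttr differed between stages by 0.05 ± 0.16, Clic6 by -0.40 ± 0.13 and Kcnj13 by -0.04 ± 0.13, none of them called. The part of these markers in the Slc13a4 difference was not tested. Slc44a1 (CTL1), a choline transporter, gave 121 to 161 in the 4 neonatal arrays, against 233 to 456 in the 4 embryonic arrays, was at least 1.28-fold lower, and had a difference of -0.80 ± 0.17 (adjusted p = 0.0139). For Slc44a1 the call was lost without the paternal-7 neonatal cerebellum or paternal-7 neonatal cortex array (differences of -0.94 to -0.65 over the 8 fits that left out 1 array, adjusted p up to 0.0698). Slc10a7, an orphan relative of bile acid carriers, had overlapping groups and a difference of -0.53 ± 0.14 (adjusted p = 0.0307). For it the call was kept without the paternal-7 13.5 dpc or maternal-7 15.5 dpc array and lost without any other (differences of -0.63 to -0.43, adjusted p up to 0.112). A second Slc10a7 probe set was at least 1.36-fold lower, with a fitted difference of -0.73 ± 0.19 (adjusted p = 0.0295), and the third tested one was not called (0.52 ± 0.31). For the second the call was kept without the maternal-7 13.5 dpc or maternal-7 neonatal cortex array and lost without any other (differences of -0.92 to -0.55, adjusted p up to 0.124). Slc9a9 and Slc4a11 were called by a dimmer probe set only, at -0.87 ± 0.24 (adjusted p = 0.036) and -0.82 ± 0.18 (adjusted p = 0.0153), both lower, and for Slc9a9 at least 1.18-fold. For Slc9a9 the call was kept without the paternal-7 13.5 dpc or maternal-7 15.5 dpc array and lost without any other (differences of -1.09 to -0.65, adjusted p up to 0.143). For Slc4a11 the call was lost without the paternal-7 13.5 dpc, maternal-7 neonatal cerebellum, maternal-7 neonatal cortex or paternal-7 neonatal cortex array (differences of -1.0 to -0.64 over the 8 fits that left out 1 array, adjusted p up to 0.0661).

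The remaining members gave no call between stages. Slc29a4 (PMAT), a monoamine transporter, read 6114 to 9996 over the 8 arrays, with a difference of 0.01 ± 0.13. The 3 tested organic ion transporters, Slc17a5, Slc18b1 and Slc22a15, differed by -0.13 ± 0.14, -0.42 ± 0.17 and -0.14 ± 0.15. All 3 cation-chloride cotransporters on the array, Slc12a3, Slc12a8 and Slc12a9, lay below the array median on every array, at 12.8 to 62.9, 19.6 to 47.2 and 8.16 to 91. So did the iron transporter Slc11a2 (22.2 to 116) and the magnesium transporter Slc41a1 (44 to 167). No level can be given for these 5 genes.

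The paternal-7 13.5 dpc array lay low in many rising probe sets. Of the 27 member probe sets that rose, 25 read lower in paternal-7 than in maternal-7 brain at 13.5 dpc, against 6 of the 17 that fell and 88 of all 152 tested. The share among rising probe sets of the whole array was not counted, so whether this is particular to transporters was not tested. In the fits named next, fewer probe sets were called over the whole array as well. Without the paternal-7 13.5 dpc array, 33 member probe sets were called between stages, of which 31 were among the 44. The lowest count, 25, was found without the paternal-7 cortex array, and 26 without the paternal-7 cerebellum array.

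Between neonatal cortex and cerebellum 1 of 152 member probe sets was called, against 0.325% of all tested probe sets. It was Slc17a7 (VGLUT1), a vesicular glutamate transporter of excitatory neurons. Slc17a7 read 2215 and 1127 in paternal-7 and maternal-7 cortex, against 301 and 234 in paternal-7 and maternal-7 cerebellum. The maternal-7 cortex array read lower than the paternal-7 one, yet both lay above every other array. In embryonic brain Slc17a7 read 379 and 367 in paternal-7 and maternal-7 samples at 13.5 dpc and 751 and 703 at 15.5 dpc. The regional difference was 2.34 ± 0.26 (adjusted p = 0.0293), and the call was lost without any 1 of the 8 arrays (differences of 1.94 to 2.74, adjusted p of 0.0529 to 0.361). Neurod2, the 1 of 6 listed glutamatergic neuron markers on the array, read 5619.8 and 6037 in paternal-7 and maternal-7 cortex, against 1653 and 2033 in paternal-7 and maternal-7 cerebellum, and its part in the Slc17a7 difference was not tested.

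The other vesicular carriers gave no regional call. Slc17a9, the vesicular nucleotide transporter, read 277 to 458 over the 8 arrays, and Slc18a1, a vesicular monoamine transporter of endocrine cells, read 162 to 398. Their regional differences were 0.21 ± 0.28 and -0.05 ± 0.26. Slc32a1, the vesicular GABA transporter, lay below the array median on every array with both of its probe sets (21.5 to 48.5 for the brighter). No level can be given for it. Gad2, which makes GABA, read 591 to 4484, a signal that cannot be compared with that of another probe set. Several uptake carriers read higher in cerebellum without a call. Slc6a7 differed by -0.99 ± 0.21 (adjusted p = 0.209), Slc6a11 by -1.08 ± 0.49 (0.682) and Slc39a12 by -1.29 ± 0.36 (0.393). Slc6a5 read 41.3 and 242 in paternal-7 and maternal-7 cortex, against 510.0 and 558 in paternal-7 and maternal-7 cerebellum, and its difference of -1.77 ± 0.53 had an adjusted p of 0.429. With 2 arrays a side, these values were not separated from the spread between arrays.

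Between 15.5 and 13.5 dpc, 8 of 152 member probe sets were called, against 6.59% of all tested probe sets. Of these, 6 rose (background 3.52%) and 2 fell (background 3.07%). This split moved with the settings, to 9 higher and 9 lower with an intensity trend, 9 and 8 with a pseudocount of 200, and 5 and 6 with a strict filter. Over all tested probe sets, 465 higher and 406 lower became 828 and 583, 662 and 597, and 570 and 388 in these settings. The strict filter tested 133 members among 11596 probe sets. By the brightest probe set, 4 genes rose and 1 fell. Slc25a24 fell at -1.96 ± 0.18 (adjusted p = 0.0084), to 727 and 923 in paternal-7 and maternal-7 brain at 15.5 dpc, against 3139 and 3581 in paternal-7 and maternal-7 brain at 13.5 dpc. For Slc25a24 the call was lost without the paternal-7 13.5 dpc or paternal-7 15.5 dpc array (differences of -2.02 to -1.89 over the 8 fits that left out 1 array, adjusted p up to 0.0758). Slc6a7 rose by 1.57 ± 0.21 (adjusted p = 0.0169) and was at least 1.4-fold higher, since both 13.5 dpc arrays were below the median. For Slc6a7 the call was kept without the maternal-7 13.5 dpc, paternal-7 neonatal cortex or maternal-7 neonatal cortex array and lost without any other (differences of 1.40 to 1.74, adjusted p up to 0.0806).

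Slc6a11 read 993 and 967 in paternal-7 and maternal-7 brain at 15.5 dpc, against 69.9 and 320.3 in paternal-7 and maternal-7 brain at 13.5 dpc. Its difference was 2.23 ± 0.49 (adjusted p = 0.0464), and the call was kept without the maternal-7 13.5 dpc array and lost without any other (differences of 1.31 to 3.16, adjusted p up to 0.18). Slc35f1 rose by 1.11 ± 0.20 (adjusted p = 0.0301), and the call was lost without any 1 of the 8 arrays (differences of 0.93 to 1.29, adjusted p of 0.0663 to 0.143). Slc2a6 is also counted among the 4 genes (adjusted p = 0.0428), but all of its embryonic arrays lay below the array median, so no difference is given, and its call was lost without any 1 of the 8 arrays. Dimmer probe sets of Slc25a27 (at least 1.97-fold) and Slc7a14 (at least 1.12-fold) were higher, each against 13.5 dpc arrays below the median, and one of Slc4a11 (-1.21 ± 0.25) lower. The Slc25a27 call was kept without the maternal-7 13.5 dpc array and lost without any other, and the other 2 were lost without any 1 array. Neuron markers rose over the same interval, Neurod2 by 1.45 ± 0.19 (adjusted p = 0.0161) and Gad2 by 1.49 ± 0.24 (adjusted p = 0.0245), and their part in the transporter differences was not tested. The number of member calls was 0 without the paternal-7 array of either age, 1 without the maternal-7 15.5 dpc or either cerebellum array, 2 without either cortex array and 7 without the maternal-7 13.5 dpc array.

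No member was called between paternal-7 and maternal-7 samples, against 0.00756% of all tested probe sets. The smallest adjusted p of a member was 0.535, and 14 of 152 member probe sets had an unadjusted p under 0.05 (9.21%, against 8.68% of all tested probe sets). The background was 0% for the difference of the duplication effect between neonatal and embryonic contexts, and no member was called there (smallest adjusted p 0.456, and 21 members, or 13.8%, with an unadjusted p under 0.05, against 9.14% of all tested probe sets). In the pairs themselves the SD of member differences was 0.632 at 13.5 dpc, 0.601 at 15.5 dpc, 0.443 in cortex and 0.386 in cerebellum. Differences below are given as values only.

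The largest member differences with 1 sign in all 4 contexts were -0.66 to 0.40 as means of the contexts, and none was called. Higher in paternal-7 were Slc30a8 (0.40 ± 0.19), Slc20a1 (0.40 ± 0.14), a phosphate transporter, Slc5a10 (0.39 ± 0.13), Slc39a6 (0.36 ± 0.14), a zinc importer, and Slc26a8 (0.36 ± 0.13). Lower in paternal-7 were Slc4a3 (-0.66 ± 0.25), an anion exchanger, Slc13a4 (-0.62 ± 0.18), Slc25a16 (-0.25 ± 0.14), Slc10a7 (-0.24 ± 0.14) and Slc25a24 (-0.22 ± 0.12). Slc13a4 read 918 in paternal-7 and 1766 in maternal-7 cortex, and 1029.8 in paternal-7 and 2117 in maternal-7 cerebellum. Its paternal-7 and maternal-7 embryonic pairs were closer, with differences of -0.39 at 13.5 dpc and -0.19 at 15.5 dpc. Of the choroid plexus markers, Kcnj13 was also lower in paternal-7 in 4 of 4 contexts (-0.39 ± 0.13), Ttr differed by -0.22 ± 0.16, and the 2 probe sets of Clic6 by -0.20 ± 0.13 and -0.76 ± 0.19, none of them called. Their part in the Slc13a4 difference was not tested.

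The labels do not give how far the duplicated segments reach, so all tested members on chromosomes 7 and 15 are given. On chromosome 7, Slc17a7 was higher in paternal-7 in 4 of 4 contexts, by 0.04, 0.09, 0.94 and 0.29 at 13.5 dpc, at 15.5 dpc, in cortex and in cerebellum. Its mean difference of 0.34 ± 0.18 had an adjusted p of 0.607. Slc1a5 differed by 0.32 ± 0.24, Slc6a21 by 0.46 ± 0.38, Slc6a5 by -0.16 ± 0.37 and Slc8a2 by -0.52 ± 0.24. The Slc6a21 value rested on the 15.5 dpc pair, with 2.09 there and -0.17 to 0.04 in the other pairs.

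On chromosome 15, Slc4a8 had the largest difference at -1.18 ± 0.36 (adjusted p = 0.535). Its brightest probe set had differences of -1.59, -0.88 and -2.30 at 13.5 dpc, at 15.5 dpc and in cortex, against 0.07 in cerebellum. Its other probe sets gave -0.46 ± 0.23 and 0.46 ± 0.15, so the probe sets did not share a direction. Slc30a8 differed by 0.40 ± 0.19, Slc25a32 by 0.21 ± 0.15, Slc2a13 by 0.18 ± 0.14, Slc45a4 by 0.14 ± 0.13, Slc38a2 by -0.15 ± 0.14 and Slc38a1 by -0.30 ± 0.15. Slc6a16 on chromosome 7, and Slc11a2 and Slc16a8 on chromosome 15, were too dim to be tested.

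**Figure D5:**
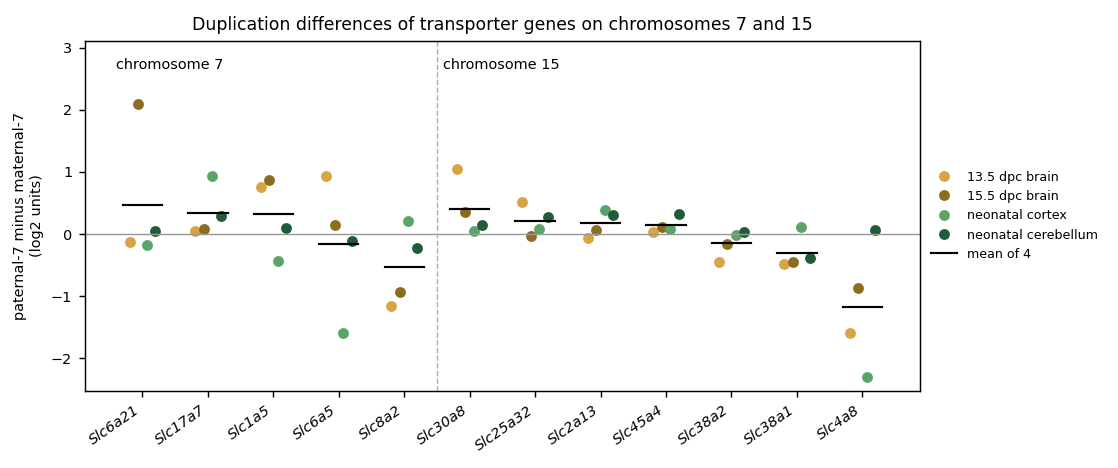
Paternal-7 minus maternal-7 difference (log2 units) in each of the 4 contexts, for the tested transporter genes of chromosomes 7 and 15 by their brightest probe set, with black bars at the mean of 4 contexts. Slc17a7 and Slc45a4 of chromosomes 7 and 15 lie above 0 in 4 of 4 contexts, as does Slc30a8, and none of the 12 genes was called.

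Neighbouring systems were thinly represented on this array. Of 18 ABC transporter genes 11 were tested, and between stages 3 rose and 1 fell, against 16.0% and 17.9% of all tested genes. Abca5, Abcc4 and Abcg1 rose, by 1.03 ± 0.13 (adjusted p = 0.00238), 1.24 ± 0.26 (adjusted p = 0.0152) and 1.13 ± 0.21 (adjusted p = 0.00951), and Abca12 fell at -0.63 ± 0.13 (adjusted p = 0.0123). Abcc4 overlapped between stages, at 276 to 482 in neonatal and 30 to 292 in embryonic arrays, with both paternal-7 embryonic arrays lowest. Abcc9 was lower at 15.5 than at 13.5 dpc, by -0.91 ± 0.18 (adjusted p = 0.0343), and its second probe set by -2.33 ± 0.33 (adjusted p = 0.0183). In glutamate and GABA metabolism, 2 of 10 listed genes were tested and both rose. They were Gad2 at 1.27 ± 0.17 (adjusted p = 0.00291) and Aldh5a1, which degrades the GABA breakdown product succinic semialdehyde, at 0.59 ± 0.15 (adjusted p = 0.0284). Gad2 read 3270.1 to 4484 in the 4 neonatal arrays, against 591 to 2935 in the 4 embryonic arrays, and it is also the 1 listed GABAergic neuron marker on the array. Its part in the Slc6a11 rise was not tested. Among transporter partners and kinases of the WNK pathway 1 of 4 tested genes rose, Wnk3 at 0.72 ± 0.14 (adjusted p = 0.012). No V-ATPase subunit (2 tested) and no carbonic anhydrase (3 tested) was called, and the 1 Na+/K+-ATPase subunit on the array was too dim to be tested.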

How the data were processed

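RNA of 8 T9H/+ mouse brain samples was measured on Affymetrix 430B arrays. The deposited values are linear signal intensity per probe set, made with MAS5 per the submitters' processing notes. Further steps are not given in the sources used here. A trimmed mean (2nd to 98th percentile) of each array was 499.914 to 499.938, so arrays were already scaled to a common level. After 64 control probe sets were set aside, 22511 remained.

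Genes were named from the platform annotation. Probe sets above the array median on at least 2 of 8 arrays were kept, and log2(signal + 58.5) was fitted with limma 3.58.1 in R 4.3.3, with 1 mean per context and a duplication term (3 residual degrees of freedom, 2 for the difference of duplication effects). p-values were adjusted by the Benjamini-Hochberg method over all tested probe sets, with a threshold of 0.05. The pseudocount is the 20th percentile of the signals. Each context had 1 array per duplication, so the 8 arrays share 1 estimate of the spread, and their number limits the precision. Where only 1 of 2 groups lay below the array median on all its arrays, a bound ("at least") is given, computed against the higher of the array median and the probe set's own signal, unless it is under 1.

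Members, classes and lists were chosen with earlier results of these data known. Named were the 12 largest called non-overlapping differences per direction and contrast, the 5 largest duplication differences per direction with 1 sign in 4 contexts, tested members of chromosomes 7 and 15, the vesicular, uptake and SLC12 classes, up to 3 genes of highest signal per class, and probe sets whose call differs within a gene. Other called genes were named after their values were seen. Alternatives were a pseudocount of 200, a floor of 1, no filter, a filter of 4 arrays, median centring, quantile normalization, an intensity trend, 1 probe set per gene, no duplication term, and leaving out arrays or pairs. The fit was tested on simulated data.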

Additional observations from a re-analysis of the deposited data

Results flagged for a closer look

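Slc6a5, the glycine transporter on chromosome 7, had duplication differences of opposite sign in the embryonic and the neonatal pairs. The paternal-7 minus maternal-7 difference was -1.59 in cortex and -0.12 in cerebellum, against 0.93 at 13.5 dpc and 0.15 at 15.5 dpc. The neonatal minus embryonic difference of the duplication effect was -1.39, with an adjusted p of 0.542 in limma, so it did not pass the test. The cortex value rests on a paternal-7 array at 41.3, below the array median, against 242 in maternal-7 cortex. No group held enough arrays for a test of single arrays that stand apart.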

How the results depend on the processing

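The 25 called results named between contexts kept their direction under all alternatives that tested them. They had been chosen for groups without overlap, so most of these alternatives could hardly reverse them, and the kept direction is no separate support. Between stages, the member count of 44 was 38 to 54 under other settings and 25 to 42 when 1 array was left out. Between 15.5 and 13.5 dpc the count of 8 became 18 with an intensity trend, 17 with a pseudocount of 200 and 2 with no filter, and was 0 to 7 when 1 array was left out. Between cortex and cerebellum the count of 1 became 0 with a floor of 1, 0 with no filter, and 0 to 0 when 1 array was left out. Leaving out 1 array leaves its context with a lone sample, assumed to vary like the others. The count over all tested probe sets between 15.5 and 13.5 dpc moved as well. From 871 it became 1411 with an intensity trend, 1259 with a pseudocount of 200 and 207 of 22511 with no filter. No member was called for the duplications, or for their difference between stages, in any setting run, and 14 and 21 members (9.21% and 13.8%) had an unadjusted p under 0.05 in limma, against 8.68% and 9.14% of all tested probe sets. Of 46 named results 4 changed sign, all of them paternal-7 minus maternal-7 values. Without both embryonic pairs Slc1a5 was -0.17, Slc38a2 0.0135 and Slc6a21 -0.0636. Over the fits without 1 pair, Slc6a21 was -0.083 to 0.67, negative without the 15.5 dpc pair, and Slc6a5 was -0.52 to 0.32, positive without the cortex pair. The causes were not tested. Median centring moved the median of all tested probe sets between stages to 0.02 and quantile normalization to -0.06, against -0.16, and turned the split of all calls from 1887 higher and 2168 lower into 2398 and 1058, and 1937 and 1606. Signals below the array median limit what can be said of 73 of the 225 member probe sets, which were not tested.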
